A study of Mus musculus with 4 samples.

Results

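The Nkx2 homeobox factors examined here were Nkx2-5, Nkx2-3, Nkx2-6 and Nkx2-2, read on 6 probes of the 29922 on the array, those whose only gene symbol in the platform's probe table was one of these names. They were 4 of the 16675 genes tested. Where a gene had several probes, the one with the highest mean over the 4 arrays stood for it, so probes were chosen by that mean and by no difference between groups. The means behind the choice were log2 6.38 and 6.04 for the Nkx2-3 probes and 4.87 and 4.17 for the Nkx2-2 probes. The family itself was proposed with results of these arrays known, so the differences below describe it, and each adjusted p-value gives a gene's place in the fit over all genes and is no independent support.

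Whole hearts of mouse embryos at embryonic day 9.5, of the strain C57bl/6 x129 hybrid, were pooled, and Cy5-labelled amplified RNA of each pool was put on 1 one-colour array. The Salv CKO group had 2 pools, with Salvador (Sav1) knocked out conditionally, the scaffold that joins the Mst and Lats kinases of the Hippo pathway, and the control group had 2 pools, labelled wild-type. The contrast addressed which genes the Hippo pathway controls in the forming heart. The number of hearts in a pool and the Cre line are not given in the labels. Cre alleles inserted at the Nkx2-5 locus are widely used for the early mouse heart, and if the Salv CKO pools carried one, its effect on the Nkx2-5 reading and that of losing Salvador cannot be told apart.

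Nkx2 proteins are transcription factors that bind DNA through a homeodomain of the NK2 class, related to Drosophila tinman. Nkx2-5 is an early marker of heart progenitors and heart muscle and acts with Gata4 and Tbx5 on muscle and chamber genes. Nkx2-3 is known from pharyngeal endoderm and arches, gut mesenchyme and spleen, Nkx2-6 from pharyngeal endoderm and the poles of the early heart, and Nkx2-2 from the ventral neural tube, where Sonic hedgehog induces it, and the pancreas. In pooled hearts, fewer cells of a type and less RNA per cell cannot be told apart, and whole hearts at this stage lie next to pharyngeal and foregut tissue.

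The promoters of 3 of the 4 genes, from 250 bases before to 50 bases after the RefSeq start site (build GRCm38.p6), are shown because they let the heart member, which was lower in Salv CKO, be read beside members with positive differences. No RefSeq promoter was available for Nkx2-6, which was called higher, so it is missing here. Capitals mark every match, on either strand, to the 6 motifs searched: TNNAGTG of NK2 factors, GGAATG of Tead factors (the DNA partners of Yap, on which the Hippo pathway acts), AGATAA of Gata factors, TGGGTGGTC of Gli factors, the TATA box TATAAA and the CCAAT box CCAAT.
Nkx2-5 promoter (chr17:26841516-26841815, - strand): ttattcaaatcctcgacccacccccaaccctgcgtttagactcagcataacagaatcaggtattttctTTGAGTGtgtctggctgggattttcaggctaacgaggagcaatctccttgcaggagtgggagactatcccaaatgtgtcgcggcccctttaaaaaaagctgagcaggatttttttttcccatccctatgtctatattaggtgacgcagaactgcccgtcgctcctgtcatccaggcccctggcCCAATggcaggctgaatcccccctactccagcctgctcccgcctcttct
Nkx2-3 promoter (chr19:43612075-43612374, + strand): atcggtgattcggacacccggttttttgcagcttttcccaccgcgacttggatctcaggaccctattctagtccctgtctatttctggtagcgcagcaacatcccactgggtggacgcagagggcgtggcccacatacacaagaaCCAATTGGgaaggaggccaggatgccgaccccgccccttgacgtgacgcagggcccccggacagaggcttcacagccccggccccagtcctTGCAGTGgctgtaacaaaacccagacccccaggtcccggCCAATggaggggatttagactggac
Nkx2-2 promoter (chr2:147186353-147186652, - strand): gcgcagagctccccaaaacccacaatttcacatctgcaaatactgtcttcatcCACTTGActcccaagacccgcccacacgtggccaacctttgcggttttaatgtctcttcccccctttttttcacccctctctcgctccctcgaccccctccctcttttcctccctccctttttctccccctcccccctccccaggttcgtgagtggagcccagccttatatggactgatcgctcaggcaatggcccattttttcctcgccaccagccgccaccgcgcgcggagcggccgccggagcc
The NK2 motif was found in all 3 windows, at bases 69 to 75 for Nkx2-5, 237 to 243 for Nkx2-3 and, on the opposite strand, 54 to 60 for Nkx2-2, counted from the first base printed. It stood in 39.4% of 32851 promoter windows of this length. The CCAAT box was matched 1 time in the Nkx2-5 window and 3 times in the Nkx2-3 window, where 2 matches on opposite strands overlap, and 37.4% of windows held it. The Tead, Gata and Gli letters and the TATA box were not in these windows. They stood in 14.7%, 11.2%, 0.253% and 13.6% of all windows. The GC content was 51.7% for Nkx2-5, 60% for Nkx2-3 and 59.7% for Nkx2-2, against a median of 52.7%. The matches describe these letters and are no evidence of binding.

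Intensities were quantile normalised and put on the log2 scale, and a probe was taken as above background at an intensity over 16, which is log2 4. Each difference is the Salv CKO mean minus the control mean of log2 intensity, with limma's standard error and n = 2 pools per group. Sav1 itself was at 9.19 and 9.13 in Salv CKO and at 9.56 and 9.30 in controls, a log2 difference of -0.27 ± 0.13 that was not called (limma adjusted p = 0.266). Left unscaled, Sav1 differed by -0.72 and was called (limma adjusted p = 0.0199), a setting in which the median of all genes above background was -0.44. Whether its probe lies in the deleted exons is not stated in the labels, so this reading is no check of them. With 2 pools against 2, the smallest p that exact permutation allows for a gene is 0.333, so every call depends on limma's pooling of the spread over genes.

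Of the 4 Nkx2 genes, Nkx2-3 and Nkx2-6 rose, Nkx2-5 fell and Nkx2-2 did not pass the test. At an adjusted p under 0.05, 10.6% of all genes were called, 4.92% higher and 5.7% lower in Salv CKO. Of the calls 46.3% were higher, a share that stood at 22.8% when arrays were median-centred and at 6.88% when they were not scaled. The 2 groups of pools did not overlap for any of the 4 genes, nor for either of the other 2 probes, beside 54.2% of all genes. As the family was proposed with these arrays in view, nothing is read from either share.

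Nkx2-5 (probe mMC008362), the heart member, had normalised intensities of 654 and 806 in Salv CKO pools, against 2649 and 1850 in control pools. Both Salv CKO pools lay well below both controls, and the controls lay further apart than the Salv CKO pools. On the log2 scale the gene averaged 9.504 ± 0.21 in Salv CKO and 11.11 ± 0.37 in controls (SD, n = 2 each). It fell by 1.61 ± 0.21 on the log2 scale (SE), 3.05-fold lower in Salv CKO (limma adjusted p = 0.0168). Its difference ranked 501 from the lowest of all 16675 genes, and 35 from the lowest of the 12402 that exceeded background on every array. This was the only probe with Nkx2-5 as its single gene symbol, so no second probe was read for the gene.

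Nkx2-3 (probe mMC005478), the pharyngeal and gut member, had normalised intensities of 358 and 350 in Salv CKO pools, against 17.4 and 21.95 in control pools. The Salv CKO pools lay close together far above the background limit, and both controls lay just above it. The means were 8.47 ± 0.02 in Salv CKO and 4.29 ± 0.24 in controls (SD, n = 2 each). The difference was 4.18 ± 0.26 (SE), 18.1-fold higher in Salv CKO (limma adjusted p = 0.00661). It ranked 15 from the highest among all 16675 genes. Among genes above background on all arrays, a filter its controls passed narrowly, it ranked 3. As deposited, the control intensities of 16.04 and 27.3 were 2.55 and 4.78 times the noise SD of their arrays, taken from the values below 0, so the size of the fold rests on readings near background. With every value under 64 raised to 64 the difference was 2.47 and still called (limma adjusted p = 0.0296).

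The dimmer probe of Nkx2-3, mMR029329, was at normalised intensities of 101 and 111 in Salv CKO pools, against 25.6 and 65.3 in control pools. The direction was the same and the groups did not overlap, but control pool 2 lay closer to the Salv CKO pools than to control pool 1. Its log2 difference was 1.37 ± 0.51 (SE), which did not pass in the fit over all probes, where 6.3% were called (limma adjusted p = 0.216). The mean of both probes gave 2.78 for the gene (limma adjusted p = 0.0227), so the rise was called. Its size differed greatly between probes, 18.1-fold on the brighter and 2.59-fold on the dimmer.

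Nkx2-6 (probe mMC013726), which mouse embryos express in pharyngeal endoderm and next to it in the outflow and inflow ends of the heart, had normalised intensities of 1148 and 1355 in Salv CKO pools, against 643 and 555 in control pools. All 4 pools were far above background, and both Salv CKO pools lay above both controls. The means were 10.28 ± 0.17 in Salv CKO and 9.22 ± 0.15 in controls (SD, n = 2 each). It rose by 1.06 ± 0.13 (SE), 2.09-fold (limma adjusted p = 0.0161). Left unscaled, as deposited, it differed by 0.60 (limma adjusted p = 0.0406), beside the same median of -0.44.

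Nkx2-2 (probe mMC012945), the ventral neural tube member, was dim, with normalised intensities of 43.3 and 42.3 in Salv CKO pools, against 20.0 and 19.8 in control pools. The pools of each group nearly coincided and the groups did not overlap. The log2 means were 5.42 ± 0.02 in Salv CKO and 4.32 ± 0.01 in controls (SD, n = 2 each), a difference of 1.10 ± 0.38 (SE) that was not called (limma adjusted p = 0.148). The limma standard error is far above the spread of these 4 values because it is drawn towards the spread of other genes of like intensity. As deposited, the 4 readings were 8.18 and 9.19 times the noise SD in Salv CKO and 2.98 and 4.26 times in controls.

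The other probe of Nkx2-2, mMR028083, was at normalised intensities of 22.7 and 28.2 in Salv CKO pools, against 11.8 and 14.0 in control pools. The controls were thus below the background limit, and the Salv CKO pools just above it. The log2 difference was 0.97 ± 0.50 (SE), of the same sign and close to that of the brighter probe, and did not pass (limma adjusted p = 0.361, fit over all probes).

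**Figure D1:**
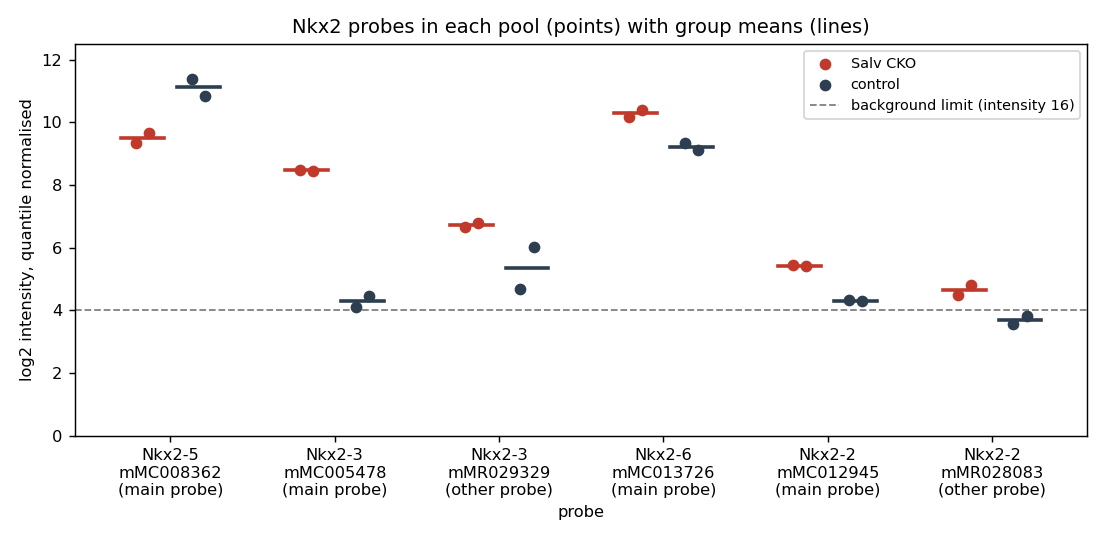
Quantile normalised log2 intensity of the 6 Nkx2 probes; each point is 1 pool (Salv CKO left, control right), lines are group means and the dashed line is the background limit of log2 4. Nkx2-5 is lower in Salv CKO (means 9.504 against 11.11), the other probes are higher, and the Nkx2-3 controls of the main probe and all Nkx2-2 readings lie near the limit.

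**Figure D2:**
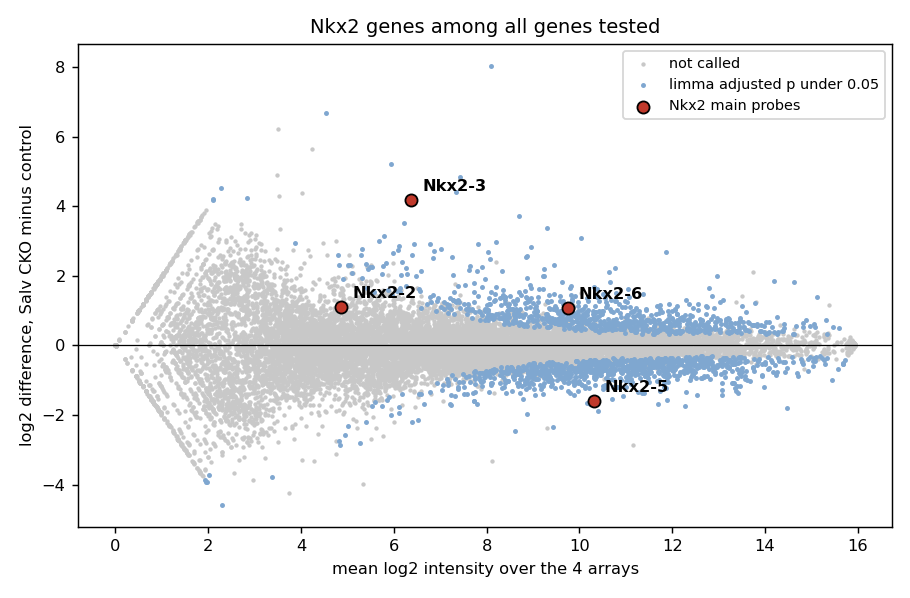
Log2 difference, Salv CKO minus control, against mean log2 intensity for all 16675 genes; called genes are blue, others grey, and the Nkx2 main probes red. Nkx2-3 stands near the upper edge at 4.18 and Nkx2-5 near the lower edge of genes of its intensity at -1.61, while Nkx2-6 (1.06) and Nkx2-2 (1.10) have like differences at very different intensities, of which the brighter one was called.

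The calls did not hold under every processing. No gene of the whole table passed with any 1 array left out or without modelling how the spread depends on intensity, so the 3 calls were lost there. Nkx2-5 and Nkx2-6 were also not called with all values floored at 16 (limma adjusted p = 0.0970 and 0.0785) or 64 (limma adjusted p = 0.0990 and 0.0794). Nkx2-2 was called with the floor of 16 (limma adjusted p = 0.0309). The direction of each of the 4 differences was the same under each alternative that gave a value. Of the called list genes named below, Gata4, Xirp1, Irx4, Neurog2 and Sox2 kept their calls with both floors, and the others lost them with the floor of 64. With 1 array left out the log2 difference ranged from -1.86 to -1.34 for Nkx2-5, from 3.96 to 4.34 for Nkx2-3, from 0.95 to 1.19 for Nkx2-6 and from 1.03 to 1.15 for Nkx2-2.

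**Figure D3:**
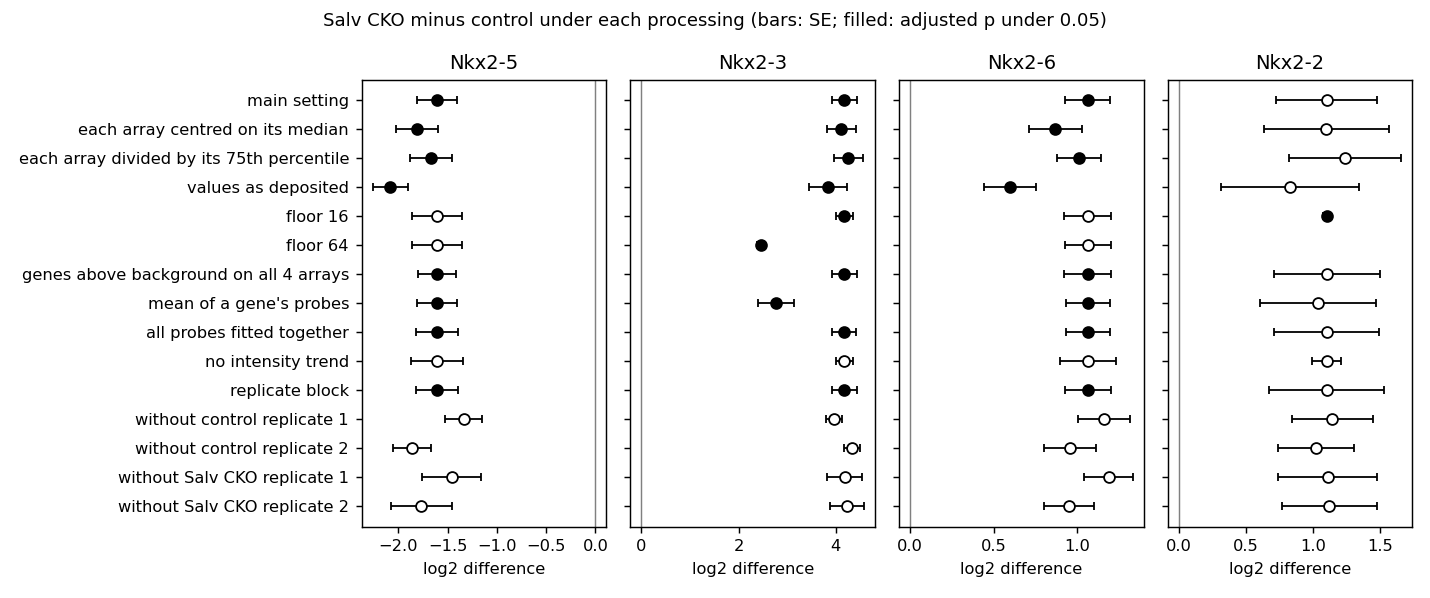
Log2 difference, Salv CKO minus control, of each Nkx2 main probe under the main setting and 14 alternatives; bars are limma standard errors and filled points passed at an adjusted p under 0.05. Nkx2-5 stays left of 0 and the other 3 right of it, and open points show where a call was lost; for Nkx2-2 no value could be had with a floor of 64.

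Of the 17 listed partners of Nkx2-5 in heart transcription 15 were measured, of which 0 rose, 4 fell and 11 did not pass, with a median difference of -0.06 beside -0.04 for all genes. Over all genes 4.92% rose and 5.7% fell, the shares to set beside this and each later list or marker count. As the lists were chosen with results of these arrays known, nothing is read from the counts. Gata4, the zinc finger factor that binds Nkx2-5, was at 10.25 and 10.17 in Salv CKO and at 11.39 and 11.41 in controls. It fell by 1.19 ± 0.08 (limma adjusted p = 0.00661), and its other probe gave -1.11. Smyd1, a muscle methyltransferase, fell by 0.89 ± 0.12 (adjusted p = 0.0175), with -0.19 on its other probe. Gata5 fell by 0.77 ± 0.14 (adjusted p = 0.0346) and Tbx2, a T-box repressor of the chamber programme in non-chamber muscle, by 0.71 ± 0.10 (adjusted p = 0.0186). Tbx5, the T-box partner of Nkx2-5, was at -0.22 ± 0.09 and Mef2c at -0.01 ± 0.07, and neither passed (limma adjusted p = 0.223 and 0.974); both were named after their values were seen. Of the 15 differences 10 were below 0 and 5 above. Left unscaled, 7 partners were called, the list's median was -0.56, and Smyd1, Gata5 and Tbx2 were at -1.40, -1.23 and -1.18; with arrays median-centred the list's median was -0.29.

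Of 20 heart genes reported to depend on Nkx2-5 in mice, 17 were measured; 0 rose, 6 fell and 11 did not pass, with a median difference of -0.44. That median was -0.17 with the mean of each gene's probes and -0.90 without scaling. Smyd1, Hand1, Mef2c and Hopx stand both in this list and among the partners. Xirp1, which binds actin at the intercalated discs of muscle, was at 10.87 and 10.82 in Salv CKO, against 12.59 and 12.48 in controls, and fell by 1.69 ± 0.08 (limma adjusted p = 0.00615). Gja5, an atrial and conduction connexin, fell by 1.36 ± 0.13 (adjusted p = 0.0110), but its dimmer probe gave 1.83. Phospholamban (Pln), the inhibitor of the sarcoplasmic calcium pump, fell by 1.36 ± 0.18 (adjusted p = 0.0168) and the ventricular factor Irx4 by 1.22 ± 0.09 (adjusted p = 0.00762). Of the genes that did not pass, 3 were above 0, and Bmp10, which is raised in Nkx2-5 mutant mouse hearts, was at 0.35 ± 0.22 (adjusted p = 0.395), named after its value was seen. The top of the scale limits 2 members of this list, which came within 5% of the highest value of an array.

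Among 24 genes listed for ventral neural tube patterning, all measured, 6 rose, 0 fell and 18 did not pass. Their median difference was 0.72, or 0.40 without scaling. The list also holds genes not confined to the ventral tube, such as Sox2 and Dbx1, so its counts do not describe ventral genes alone. Neurog2, a proneural factor, was at 9.502 and 9.58 in Salv CKO, against 5.37 and 4.93 in controls, and rose by 4.40 ± 0.22 (limma adjusted p = 0.00640). Sox2, a factor of neural and endodermal progenitors that the study of these samples had itself named, which makes it no independent evidence, rose by 3.71 ± 0.22 (adjusted p = 0.00661). Dbx1, a homeobox factor of mid-level interneuron progenitors, rose by 2.01 ± 0.41 (adjusted p = 0.0456), a call lost with the mean of probes (adjusted p = 0.0554) and with all probes fitted together (adjusted p = 0.0637). Gli2, an effector of hedgehog signalling, rose by 1.02 ± 0.09 (adjusted p = 0.0102), with -0.05 on its other probe; it was not called without scaling (0.50, adjusted p = 0.0780) or as the mean of its probes (0.48, adjusted p = 0.0617). Among the genes closest to Nkx2-2 in the ventral tube, chosen after their values were seen, Shh was at 0.46 ± 0.10 (adjusted p = 0.0543), Foxa2 at 1.30 ± 0.30 (adjusted p = 0.0595) and Nkx2-9 at 0.86 ± 0.27 (adjusted p = 0.120). These differences were positive and none of them passed, as for Nkx2-2. Nkx6-1, of the same list, rose by 0.67 ± 0.14 and passed (limma adjusted p = 0.0466), a call lost under settings given below. Foxa2 stands as well in the pharyngeal list and among the foregut endoderm markers. Olig2, of the neighbouring motor neuron domain and chosen in the same way, was at -0.11 ± 0.12 (adjusted p = 0.612).

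Of 23 pharyngeal endoderm and arch genes 20 were measured; 7 rose, 0 fell and 13 did not pass, with a median difference of 0.84, which was 0.35 with a floor of 64. Sox2 and Foxa2 are shared with the neural list. Tbx1, a T-box factor of the pharynx, was at 9.17 and 8.98 in Salv CKO, against 7.59 and 7.67 in controls, and rose by 1.44 ± 0.14 (limma adjusted p = 0.0104), with 2.50 on its other probe. Eya1, a coactivator in arches and pouches, rose by 1.41 ± 0.13 (adjusted p = 0.0101), with 3.25 on its other probe, and the epithelial claudin Cldn6 rose by 1.39 ± 0.15 (adjusted p = 0.0126), and by 0.88 without scaling. Pax9, a pouch factor chosen after its value was seen, lay the other way at -1.02 ± 0.34 (adjusted p = 0.135). Beside the 7 of 20 measured pharyngeal genes that rose, 4.92% of all genes did. Every gene was read on the same 2 Salv CKO pools, and a shared source of these genes with Nkx2-3 and Nkx2-6 was not tested.

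Of 23 other homeobox genes of the NK class and its relatives 21 were measured, of which 3 rose, 0 fell and 18 did not pass, with a median difference of 0.34 that was -0.027 with the values as deposited. The risen genes were Tlx2 (2.99 ± 0.51, limma adjusted p = 0.0308), with 0.21 on its other probe, Barx1, a factor of arch and stomach mesenchyme (1.70 ± 0.20, adjusted p = 0.0146), and Nkx6-1, of the ventral neural tube and pancreas (0.67 ± 0.14, adjusted p = 0.0466). Tlx2 was not called as the mean of its probes (1.60, adjusted p = 0.0891). Nkx6-1 was not called with arrays median-centred (0.53, adjusted p = 0.0585), with the mean of probes (adjusted p = 0.0530), with all probes fitted together (adjusted p = 0.0593) or without scaling (0.26, adjusted p = 0.457). Of the nearest relatives, Nkx2-1, of thyroid, lung and forebrain, was at 0.49 ± 0.23 (adjusted p = 0.272), and Nkx2-4 was above background on 1 array, both named after their values were seen.

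**Figure D4:**
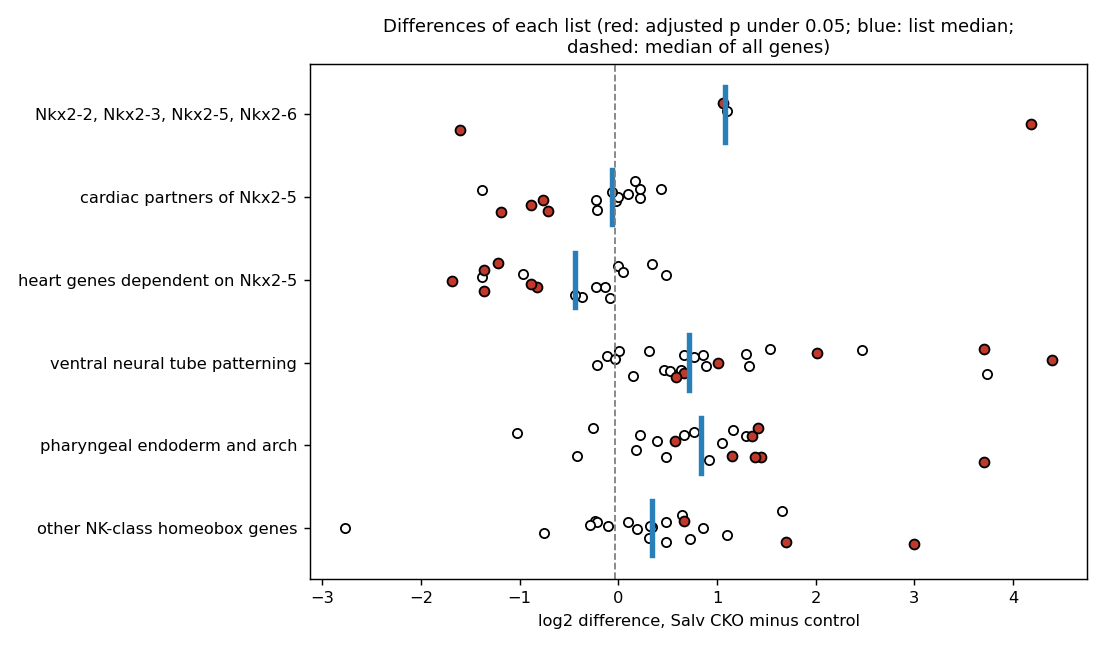
Log2 difference, Salv CKO minus control, of each measured gene in the Nkx2 family and the 5 lists; red points passed at an adjusted p under 0.05, blue bars are list medians and the dashed line is the median of all genes. The called genes of both heart lists lie below 0 and those of the neural, pharyngeal and NK-class lists above 0, with Nkx2-5 apart from the other 3 Nkx2 genes.

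Markers of other tissues moved in the same pools. Their sums are on the linear scale and are led by the brightest genes of each list. The summed normalised intensity of the 7 foregut endoderm markers was 8709 and 9065 in Salv CKO and 6222 and 6017 in controls, and 2 of 7 rose. The 10 neural markers summed to 10396 and 10114 in Salv CKO and to 4516 and 5090 in controls, with 3 called higher and 1 lower. Most of the gap was Zic1, at log2 12.21 and 12.0 in Salv CKO and 2.35 and 5.81 in controls. The 7 neural crest markers summed to 49275 and 49288 in Salv CKO and to 14062 and 13736 in controls, and 4 rose, while Foxd3 was below background on all arrays. Crabp1, at log2 15.5 in both Salv CKO pools and 13.7 in both controls, made up most of each crest sum. The 6 somite markers summed to 3624 and 3599 in Salv CKO and to 585 and 493 in controls, and 3 rose, while Myf5 was below background on all arrays. Tcf15, at log2 11.58 and 11.55 in Salv CKO and 8.60 and 8.38 in controls, made up most of each somite sum. The 6 liver and yolk sac markers, of which 2 rose, summed to 3815 and 3749 in Salv CKO and to 2467 and 2403 in controls. The 5 epicardial and proepicardial markers, of which 2 rose, summed to 2182 and 2421 in Salv CKO and to 1240.2 and 1195 in controls. The 2 that rose, Aldh1a2 and Upk3b, made up most of each sum. Wt1 and Tcf21 were below background throughout, and Tbx18, at -0.80, was above it on 1 array.

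Sums of cardiac and blood markers were lower. The 10 heart muscle markers summed to 348411 and 351094 in Salv CKO and to 378563 and 433857 in controls, and 4 fell, although 6 of the 10 came within 5% of an array's highest value, where differences are compressed. Of the 7 endothelial and endocardial markers 4 fell, with sums of 10825 and 10113 in Salv CKO and 18750 and 18126 in controls, and of the 5 primitive red cell markers, with sums of 104943 and 104479 in Salv CKO and 125085 and 125591 in controls, 2 fell. The part of these marker differences in the Nkx2 values was not tested. Set against the mean of the heart muscle markers on the same array, the Nkx2-5 difference was -1.18, and set against the endothelial markers -0.89. The heart muscle mean differed by -0.42 and includes the 6 markers near the top of the scale, which limits how the -1.18 can be read. Single heart muscle markers ranged from -1.41 to 0.35. Set against the foregut endoderm markers the difference was 3.41 for Nkx2-3 and 0.29 for Nkx2-6, and set against the neural markers it was -0.55 for Nkx2-2. The Nkx2-3 value rests on the brighter probe, whose controls lay near background. Its dimmer probe differed by 1.37, beside 0.77 for the mean of the foregut endoderm markers. The neural markers differed by 1.65 in mean but by 0.54 in median. With Zic1 at 8.03 and its control 1 reading below background, that mean stood above the Nkx2-2 difference of 1.10. The negative sign for Nkx2-2 therefore depends on Zic1. These relative differences are descriptions chosen after the values were seen, with no test.

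The genes whose 4 values, each centred on its own mean, lay at the smallest Euclidean distance from those of a Nkx2 gene were taken from 12317 named genes above background on at least 2 arrays. For Nkx2-5 they were H2-M10.1 (distance 0.171), Dnajb14 (0.247) and Flnc (0.249), for Nkx2-3 Cd300e (0.337), Ninj2 (0.428) and Neurog2 (0.598), for Nkx2-6 Mapk13 (0.0589), Mast1 (0.0889) and Lrpprc (0.0938), and for Nkx2-2 Ube2e1 (0.0319), Hrsp12 (0.0369) and Metap2 (0.0466). Flnc, the muscle filamin, fell by 1.79 ± 0.14 (limma adjusted p = 0.00781), close to the fall of Nkx2-5, with 0.36 on its other probe. H2-M10.1 and Dnajb14 were nearer to Nkx2-5 but dim and not called (limma adjusted p = 0.0844 and 0.0700). Other probes gave -0.03 for Lrpprc, 0.13 for Ube2e1, -0.42 and 1.03 for Hrsp12 and -0.13 for Metap2. Cd300e and Ninj2 were at or near the floor in both controls and just above background in Salv CKO, so their likeness to Nkx2-3 rests on dim readings. Over 4 arrays in 2 groups, many genes share a pattern, and the distances describe these arrays.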

How the data were processed

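Per the labels' protocols, RNA of pooled E9.5 hearts was amplified with amino-allyl nucleotides and labelled with Cy5 alone. The values the authors deposited are linear probe intensities, with 3.37 to 5.99% per array below 0 and 75th percentiles of 361 and 373 in Salv CKO and of 445 and 536 in controls. The labels name no scanner, background method or scaling. The number of arrays limits the precision. Each p-value sets a difference against the spread between pools, drawn towards the spread of other genes of like intensity.

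The 4 columns were quantile normalised (limma 3.58.1, R 4.3.3), floored at an intensity of 1 and put on the log2 scale. The platform's table gave 1 gene symbol for 21020 probes. The other 8902, with no symbol or with several, were assigned to no gene. The brightest probe stood for each of 16675 genes, fitted with lmFit and eBayes with an intensity trend, two-sided, with Benjamini-Hochberg adjustment at 0.05. Other probes were read from a fit over all 29922. RefSeq synonyms matched listed genes to older symbols, and the lists served only for counts and medians.

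Members, lists and tests were chosen with earlier results of these arrays known. Named genes were the members, Sav1, up to 4 called genes per list and direction of largest difference, and the 3 genes most like each member; others are marked where named. Alternatives covered scaling, floor, filter, probe choice, spread model, replicate block and arrays left out.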

Additional observations from a re-analysis of the deposited data

How the results depend on the processing

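Differences are log2, Salv CKO minus control, with limma adjusted p. The 4 Nkx2 differences had the same direction under each alternative that gave a value; with a floor of 64 all arrays of Nkx2-2 lay at the floor and gave none. With each array centred on its median 543 genes were higher and 1835 lower, against 821 and 951. With the values as deposited 229 were higher and 3101 lower, 7 cardiac partners and 10 Nkx2-5-dependent heart genes were called, and the NK-class median was -0.027; the share of calls that were higher was 46.3%, 22.8% and 6.88% in these 3 settings, and 40.6% with the 75th percentile. With a floor of 16, 253 were higher and 228 lower, Nkx2-5 (-1.61, adjusted p = 0.0970) and Nkx2-6 (1.06, adjusted p = 0.0785) lost and Nkx2-2 (1.10, adjusted p = 0.0309) gained the call, and the partner, dependent, neural, pharyngeal and NK-class lists had 1, 3, 3, 4 and 0 calls. With a floor of 64, 257 were higher and 234 lower, Nkx2-5 (-1.61) and Nkx2-6 (1.06) lost the call, and the lists had 1, 2, 2, 1 and 0. With only genes above background on all arrays 1239 were higher and 1437 lower, and 10 neural genes were called. With the mean of a gene's probes 3 neural and 1 NK-class gene were called, and Gja5 turned to 0.24. Without the intensity trend 0 genes were called (3578 at an unadjusted p under 0.05), with Nkx2-5 at -1.61 (adjusted p = 0.133), Nkx2-3 at 4.18 (adjusted p = 0.100) and Nkx2-6 at 1.06 (adjusted p = 0.133), and the 5 lists had 0 calls. With 1 array left out 0 genes were called in limma, 0 in each list (3172 to 3438 at an unadjusted p under 0.05). Nkx2-5 then ranged from -1.86 to -1.34, Nkx2-3 from 3.96 to 4.34, Nkx2-6 from 0.95 to 1.19 and Nkx2-2 from 1.03 to 1.15; the lone array of a group was assumed to vary like the others. With the replicate block 1016 genes were higher and 1195 lower, and Nkx2-5 (-1.61, adjusted p = 0.0236), Nkx2-3 (4.18), Nkx2-6 (1.06) and Nkx2-2 (1.10) kept their side of the threshold; deviations of same-numbered pools correlated at 0.17 over 12402 genes, but the labels name no shared source, so the numbers are not taken as pairs. The cause of the lost calls was not tested. Readings near background, the Nkx2-3 controls and all of Nkx2-2, limit how well the sizes of those differences are known.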
